A study of Homo sapiens with 51 samples.

Results

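Apical polarity and epithelial trafficking genes are described here across 5 human pancreatic ductal adenocarcinoma (PDA) cell lines. The set held 10 genes, taken by symbol from the 25421 gene symbols of the count table, and each symbol matched 1 row. These genes were chosen with earlier results of these data known. CRB3, PATJ, PARD6B, PARD3 and LLGL2 belong to polarity complexes, AP1M2 to a sorting adaptor, and RAB25, MAL2, MYO5B and SH3YL1 act in vesicle traffic or membrane signalling. The table came from 51 libraries in 17 groups of 3, made by PLATE-seq, which tags and pools the 3′ ends of transcripts. KP4, PANC1 and PK45H, which the labels call morphogenic, each had 5 groups: untreated, mCherry, OVOL2, mCherry + M2rtTA and OVOL2 + M2rtTA. For HPAFII and PATU8988S the only group was untreated. Per the labels, open reading frames were delivered by lentivirus at a multiplicity of infection of 2 with 8 µg/ml polybrene, so the insert is an added copy and not the cells' own locus. OVOL2 is a zinc-finger transcription factor, mCherry is a fluorescent control protein, and M2rtTA is a transactivator for tetracycline-inducible promoters that was given by a second virus. All transduced groups, the mCherry controls included, were kept in 2.5 µg/ml puromycin and 0.6 µg/ml doxycycline from the next day. RNA was taken after 6 days, and 100 ng entered each library. The triplicates were wells of 1 line, so p-values measure the spread between wells.

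Epithelial cells divide their surface into an apical and a basolateral side. The Crumbs complex (CRB3, the adaptor MPP5 and the scaffold PATJ) and the Par complex (PARD3, PARD6 and an atypical protein kinase C) mark the apical side, and LLGL2 belongs to the module that opposes them at the basolateral side. Proteins then reach the right surface through adaptors such as AP-1B, which contains AP1M2, and through recycling endosomes that carry RAB11 or RAB25 and move with the motor MYO5B. MAL2 takes part in transport across the cell towards the apical face. SH3YL1 is a phosphoinositide-binding adaptor protein. ZEB1 is a repressor of epithelial genes that binds E-boxes, and genes of the Crumbs complex and LLGL2 are among its known targets. OVOL2 is known as a repressor of ZEB1.

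Library totals ran from 1165399 counts (HPAFII replicate 2) to 7490556, and the next lowest was 2439323. Levels below are CPM, the counts divided by the library total and scaled up, with TMM factors that correct the totals for composition. A change is given on the log2 scale, with its standard error (SE), from edgeR's quasi-likelihood test, and a gene was called at a Benjamini-Hochberg adjusted p under 0.05 over all genes tested. Counts of 3′ ends rank a gene between groups and not against other genes. The row for OVOL2 did not check the labels, since the sources used here do not say whether 3′ ends of the viral transcript were counted there. Its level over the 3 lines differed from mCherry by -0.09 (adjusted p = 0.926) without M2rtTA and by 2.15 (adjusted p = 0.000210) with it. ZEB1 was 15.3 to 33.1 CPM in the mCherry libraries and 1.92 to 5.16 CPM in the OVOL2 libraries, both without M2rtTA. With M2rtTA it was 11.2 to 25.3 CPM in the mCherry and 1.01 to 7.84 CPM in the OVOL2 libraries. Markers fixed for carcinoma cells (EPCAM, CDH1 and 4 keratins) summed to 609 to 14283 CPM, with none at 0 in all libraries. Leukocyte markers summed to at most 9.92 CPM, endothelial markers to 13.5 and islet markers to 0.508. The summed mesenchymal genes VIM, ZEB1, CDH2 and FN1 had a median of 1702 CPM in the mCherry and 438 CPM in the OVOL2 libraries of the 3 lines. In PK45H they were low already, at 232 to 287 CPM in mCherry and 83.4 to 117 CPM in OVOL2. With M2rtTA they were 267 to 275 CPM and 168 to 209 CPM there. The part of these genes in the results was not tested. The 5 fibroblast markers moved with OVOL2 in the M2rtTA arm, from sums of 22.4 to 31.4 CPM in mCherry to 43.5 to 53.7 CPM in OVOL2 for KP4, from 28.0 to 38.0 CPM to 46.8 to 68.3 CPM for PANC1 and from 11.4 to 14.6 CPM to 28.2 to 33.8 CPM for PK45H. Most of this was COL1A1, a collagen chain (in KP4 8.07 to 17.9 and then 36.7 to 44.3 CPM), while LUM had at most 3 counts in any of these groups. The 3 acinar markers were at 0 in PK45H mCherry and summed to 5.29 to 7.60 CPM in PK45H OVOL2, and with M2rtTA to at most 0.152 and then 4.63 to 6.00 CPM. Nearly all of that was the trypsinogen gene PRSS1, and CPA1 had at most 1 count there. The mitochondrial share of counts was 24.4% to 37.0% over all libraries, and in PANC1 it was 25.9% to 30.2% in mCherry and 32.2% to 32.8% in OVOL2, and with M2rtTA 28.5% to 28.9% and 33.4% to 35%. The part of these in the results was not tested. In bulk cultures a larger share of responding cells and more RNA per cell cannot be told apart.

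The DNA ahead of the start sites is shown first, because several members are known for E-boxes there. RefSeq promoters (GRCh38.p14) matched 6 of the 10 genes: CRB3, PATJ, AP1M2, RAB25, MYO5B and SH3YL1, the last with 5 start sites. The motif CAGGTG, or CACCTG on the other strand, was searched in the 250 bases before each start, and it occurred before a start of all 6 genes. Of 35116 such windows of all genes, 17.5% held it at least once, 0.464% at least 3 times and 0.074% at least 5 times. The CRB3 window held 5, AP1M2 and MYO5B 3 each, PATJ 2 and RAB25 1. One SH3YL1 window held 3, and the other 4 SH3YL1 windows held 0, 0, 0 and 1. The core CCGTTA (or TAACGG), known from OVOL-type zinc fingers, was found in the CRB3 window once, against 2.45% of all windows. The following stretches show genes with 1 window and many matches (CRB3, AP1M2, MYO5B) beside one with a single match (RAB25), 5′ to 3′ on the strand of the gene, with motif matches in capitals. The 4 stretches of CRB3 are on the plus strand at chr19:6464041-6464070, chr19:6464113-6464132, chr19:6464175-6464194 and chr19:6464204-6464223, all within or at the edge of an annotated exon. AP1M2 is read on the minus strand at chr19:10587316-10587562, MYO5B on the minus strand at chr18:50195148-50195397 and RAB25 on the plus strand at chr1:156060910-156061159, none of them in an annotated exon.
CRB3 stretch 1: tgCAGGTGtaaggtccccctcaCACCTGcg
CRB3 stretch 2: gggtcCCGTTACAGGTGcgc
CRB3 stretch 3: cgaggctCAGGTGcacaagc
CRB3 stretch 4: gctctccCAGGTGagtgact
AP1M2: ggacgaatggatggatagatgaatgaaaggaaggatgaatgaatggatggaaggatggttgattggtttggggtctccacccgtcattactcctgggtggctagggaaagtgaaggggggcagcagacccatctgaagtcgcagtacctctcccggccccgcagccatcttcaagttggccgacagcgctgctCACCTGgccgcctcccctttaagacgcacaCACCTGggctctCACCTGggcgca
MYO5B: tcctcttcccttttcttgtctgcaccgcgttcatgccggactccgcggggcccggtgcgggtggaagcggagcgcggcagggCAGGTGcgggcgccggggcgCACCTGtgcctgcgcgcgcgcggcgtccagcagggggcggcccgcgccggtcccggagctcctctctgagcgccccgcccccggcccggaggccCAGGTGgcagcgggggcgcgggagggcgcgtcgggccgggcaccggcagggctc
RAB25: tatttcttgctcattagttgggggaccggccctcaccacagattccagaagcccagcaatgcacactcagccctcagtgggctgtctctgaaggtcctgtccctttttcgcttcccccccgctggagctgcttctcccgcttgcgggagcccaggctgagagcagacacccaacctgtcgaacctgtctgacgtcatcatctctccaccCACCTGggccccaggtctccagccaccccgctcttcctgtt
In CRB3 stretch 2 the OVOL-type core runs directly into an E-box, at 153 and 147 bases before the start. A match describes these letters and does not show that a factor binds there. LLGL2, PARD6B, PARD3 and MAL2 had no entry in the table.

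**Figure D1:**
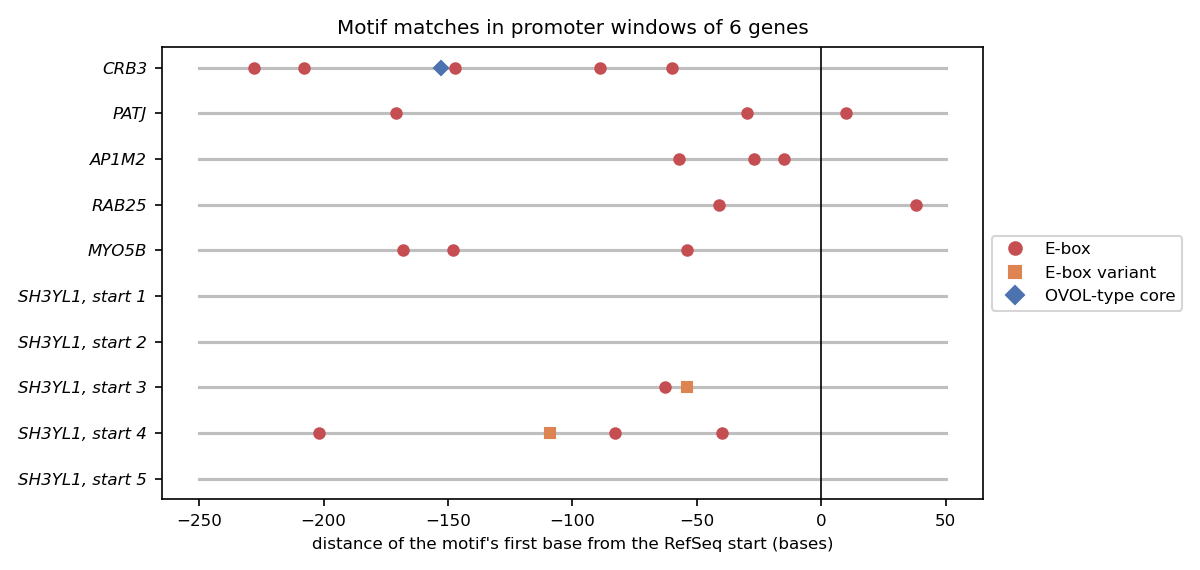
Motif matches in the promoter windows of 6 genes: the x axis is the distance in bases of the motif's first base from the RefSeq start, and each line is 1 window from 250 bases before to 50 bases after a start. Circles are the E-box named in the text, squares a variant that differs in its last base, and the diamond the OVOL-type core. The windows of CRB3, AP1M2 and MYO5B hold 5, 3 and 3 E-boxes before the start, and RAB25 holds 1 there.

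Untreated lines were compared first, to place the members in cells that had received no virus. 7 of the 10 members were called higher in HPAFII and PATU8988S than in KP4, PANC1 and PK45H, and none was called lower. Over all 13785 genes tested, 17.4% were called higher and 17.4% lower. Because the members were chosen with earlier results of these data known, the shares are a description and no test of the set. The median log2 fold change was 3.15 over the members and -0.00 over all genes. The largest difference was that of RAB25, a RAB11-type small GTPase, at 6.39 (SE 0.24, adjusted p = 1.62e-10). RAB25 stood at 257, 84.2 and 255 CPM in HPAFII and at 262, 286 and 285 CPM in PATU8988S, while the 9 untreated libraries of the other lines lay between 2.12 and 4.34 CPM. The groups were far apart, even though HPAFII replicate 2 reached only 0.329 times the mean of its 2 companions. AP1M2 followed with 5.89 (SE 0.33, adjusted p = 5.59e-09), from 54.9 to 113 CPM in the first set of lines and 0 to 9.38 CPM in the second.

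CRB3, the Crumbs protein most widely found in epithelia, differed by 5.20 (SE 0.42, adjusted p = 2.32e-07). It was 9.5, 7.52 and 6.66 CPM in HPAFII and 4.98, 5.20 and 5.61 CPM in PATU8988S. KP4 had 1 CRB3 count in its 3 untreated libraries together, PANC1 2 and PK45H 6, so the fitted size depends on a few reads. MYO5B differed by 4.70 (adjusted p = 5.83e-08), MAL2 by 3.99 (adjusted p = 3.78e-08), LLGL2 by 2.31 (adjusted p = 1.29e-08) and SH3YL1 by 2.02 (adjusted p = 2.99e-08). For LLGL2 the sets did not separate by line: PANC1 lay at 21.1 to 25.3 CPM, overlapping HPAFII at 20.3 to 30.1 CPM, and KP4 and PK45H at 2.76 to 5.21 CPM. The Par complex genes were not called: PARD3 differed by 0.03 (SE 0.12, adjusted p = 0.867) and PARD6B by -0.43 (SE 0.49, adjusted p = 0.528). PATJ differed by -0.68 (SE 0.75, adjusted p = 0.518), with 1 PK45H library at 397 CPM beside 6.63 and 6.25 CPM. PATJ and PARD6B turned with single libraries of very high values. 8 libraries that stand apart, described with the OVOL2 results, were left out after the data were seen. Without them PATJ differed by 1.15 and PARD6B by 0.56. All but HPAFII replicate 2 were picked from high values of these genes themselves. The untreated libraries so picked were all of KP4, PANC1 or PK45H, which pushes both differences upward in advance. No p-value is therefore given for them.

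Within these sets the lines also differed. PATU8988S exceeded HPAFII in SH3YL1 by 1.23 (SE 0.20, adjusted p = 0.000615), in LLGL2 by 0.77 (SE 0.21, adjusted p = 0.0168) and in MAL2 by 1.21 (SE 0.39, adjusted p = 0.0417), where 11% of all genes tested were called higher. MAL2 rested on HPAFII replicate 2, the library with the lowest total: it had 27.1 CPM against 100 and 79.1 CPM in the others, and without it the difference was 0.86 (adjusted p = 0.0862). LLGL2 lost its call without PATU8988S replicate 2, at 0.68 (adjusted p = 0.0735). Between KP4, PANC1 and PK45H, 6 members were called (LLGL2, PATJ, PARD3, AP1M2, MYO5B and SH3YL1), against 37.9% of all genes. PANC1 was the highest of the 3 in LLGL2, AP1M2 and SH3YL1. PK45H was the highest in PARD3, at 78.4 to 115 CPM against 30.7 to 43.3 CPM in the other lines, and in MYO5B, at 7.29 to 9.07 CPM against 0 to 1.71 CPM. PATJ lost its call when any 1 of 6 libraries was left out, among them PK45H replicate 3 (adjusted p = 0.0528).

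**Figure D2:**
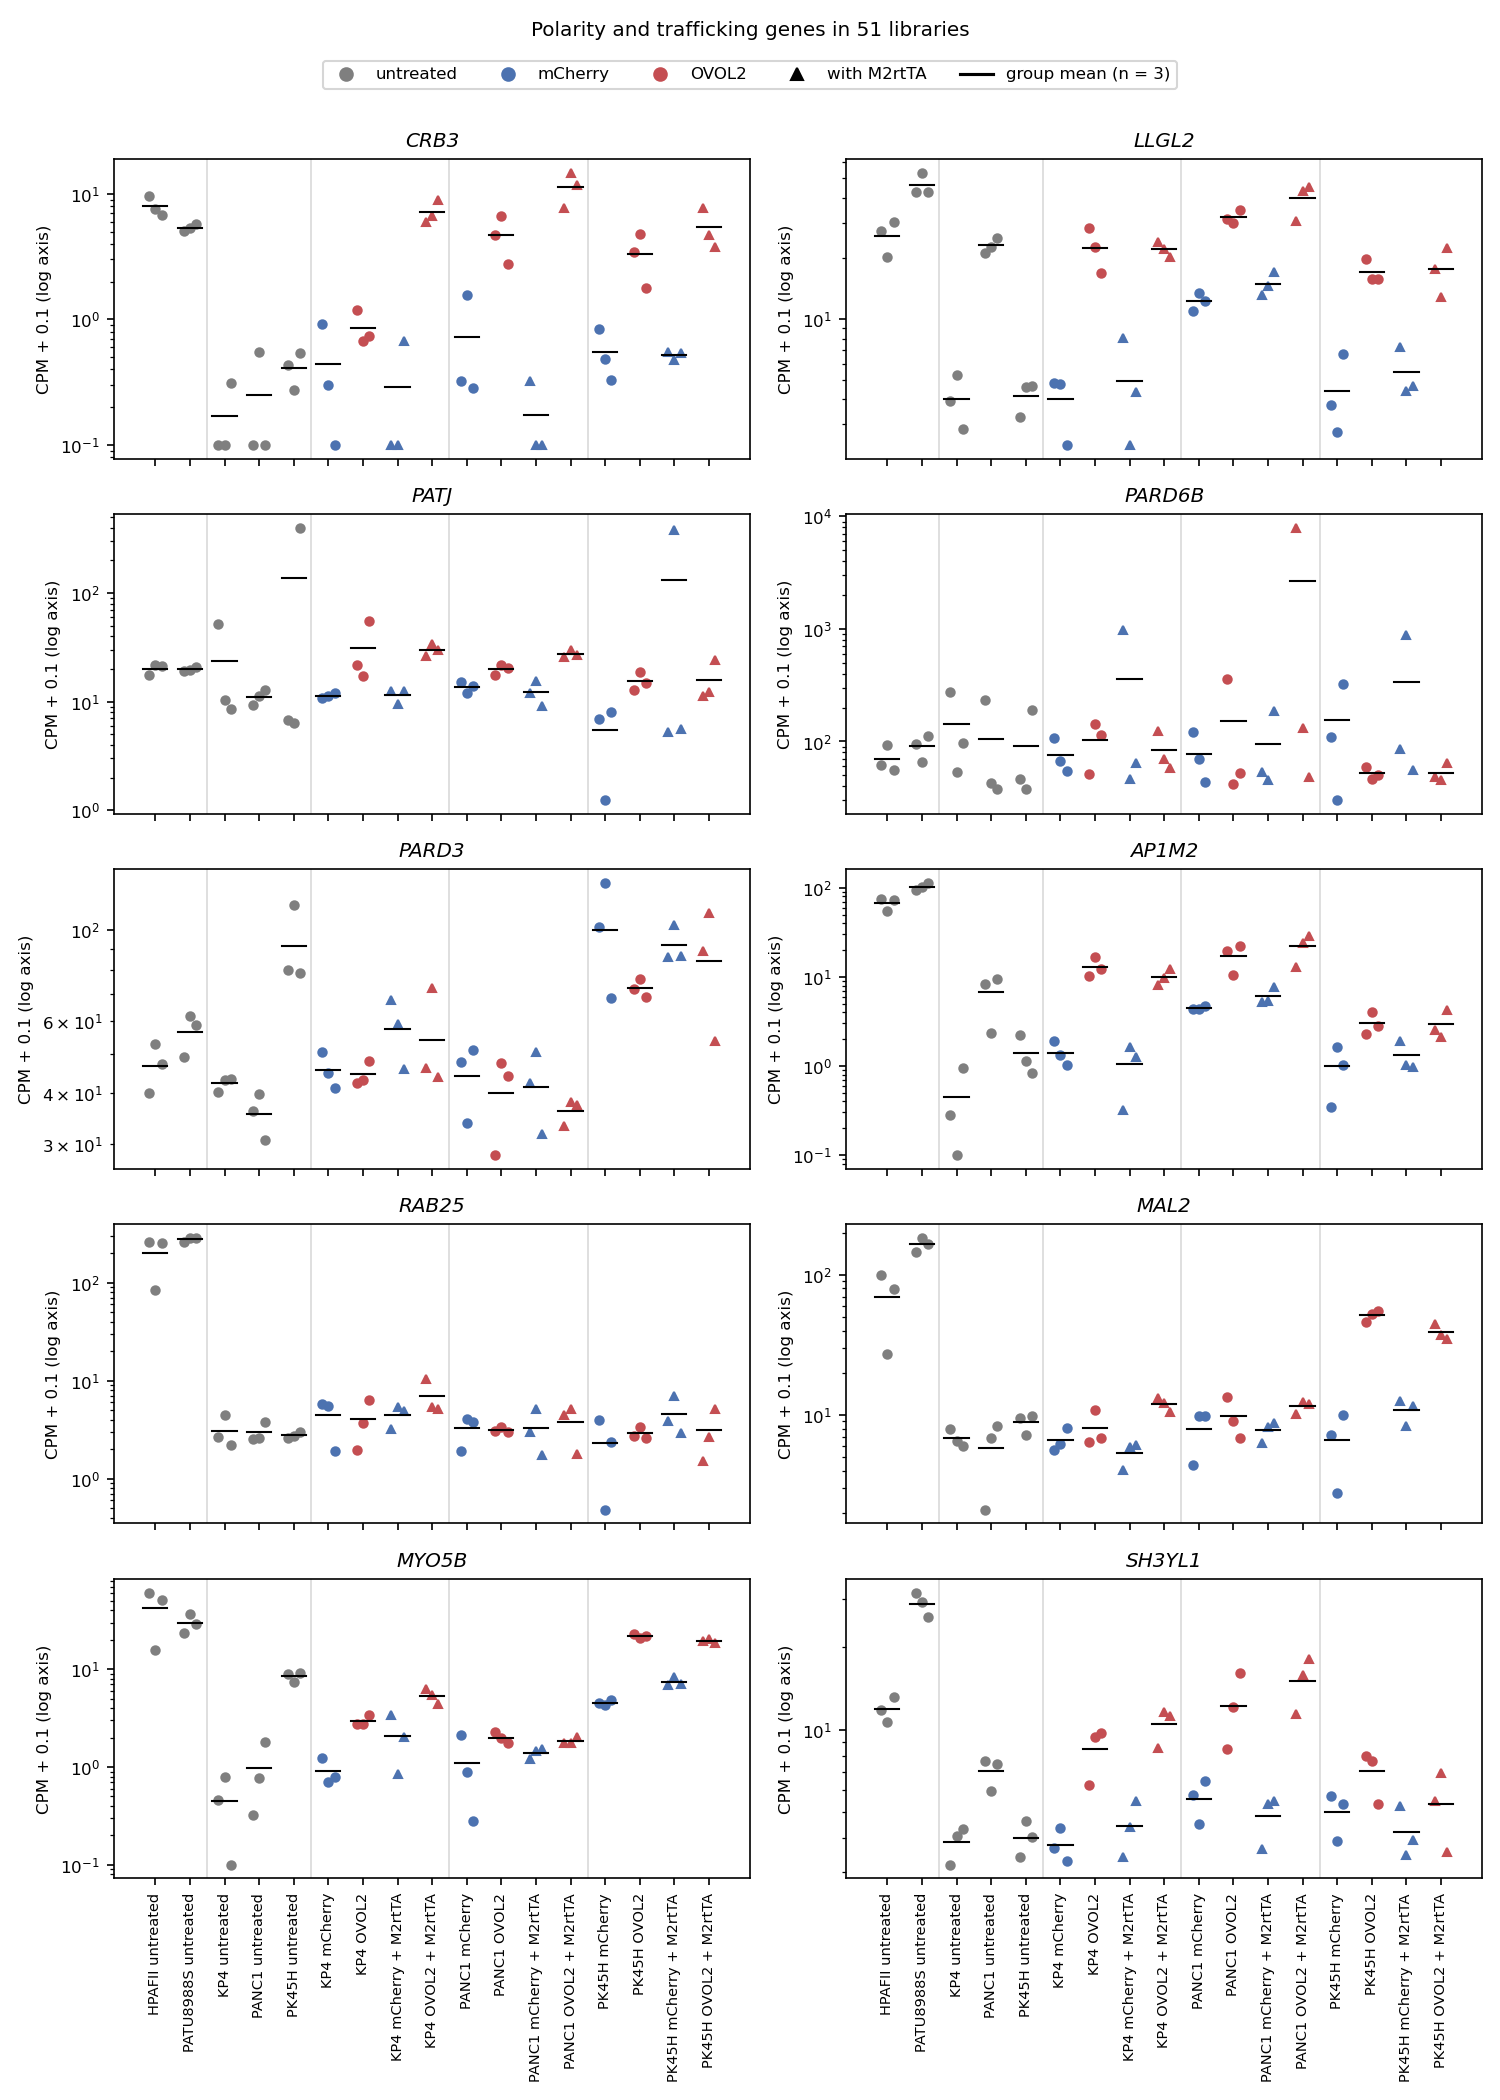
CPM + 0.1 on a log axis for each of the 10 genes in 51 libraries, 1 point per library, with the mean of the 3 libraries of a group as a bar, circles without and triangles with M2rtTA. RAB25 is between 84.2 and 286 CPM in the untreated HPAFII and PATU8988S libraries and is at most 10.3 CPM in every other library, while LLGL2 and AP1M2 are higher in OVOL2 than in mCherry libraries of each line and arm, as is CRB3 except in KP4 without M2rtTA, where the groups overlap.

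OVOL2 was then compared with mCherry over KP4, PANC1 and PK45H. 6 of 10 members rose without M2rtTA and none fell, where 9.32% of 14943 genes were called higher and 8.81% lower: CRB3, LLGL2, AP1M2, MAL2, MYO5B and SH3YL1. With M2rtTA the members called were the same 6, where 15.7% of all genes were called higher and 17.3% lower. Here too the members were chosen with earlier results of these data known, so the counts describe the set and do not test it. Line by line without M2rtTA, 3 of 10 members tested were called in KP4 (6.82% of all genes), 4 of 9 in PANC1 (5.08%) and 4 of 10 in PK45H (8.39%), and all calls were rises. With M2rtTA the counts were 5 (22.4% of all genes), 5 (13.9%) and 4 (15.9%), again all rises. The median over the members was 1.15 without and 1.09 with M2rtTA, and over all genes 0.00 and 0.03. The members not called were PATJ, PARD6B, PARD3 and RAB25. Among these, PATJ and PARD6B held single libraries at many times the level of their companions. 8 libraries stood apart, 7 with such a value and HPAFII replicate 2. With these left out, a choice made after the data were seen and for the first 7 from the values of PATJ and PARD6B themselves, 7 members were called in each arm, the seventh being PATJ. That call is therefore no test of PATJ.

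**Figure D3:**
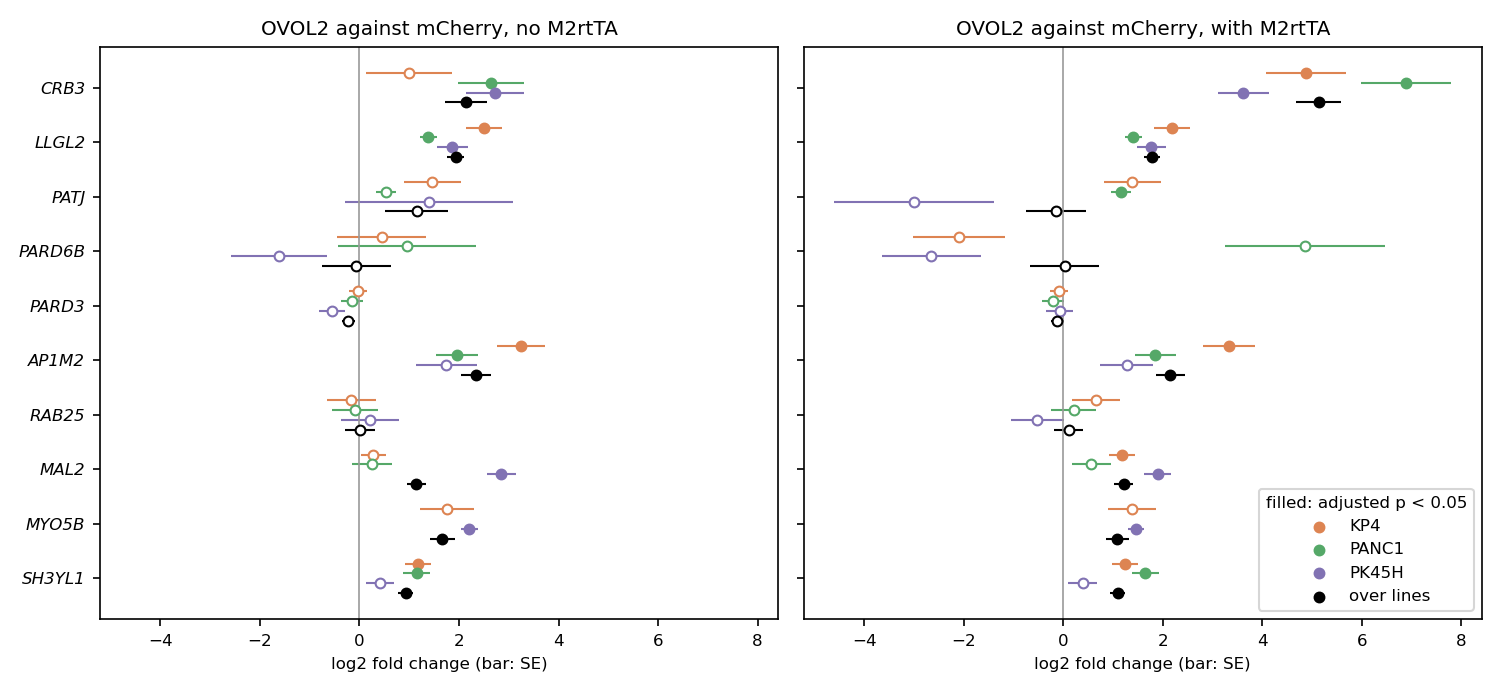
Log2 fold change of OVOL2 against mCherry for each gene, without M2rtTA (left) and with it (right), with bars of 1 SE; colours are the 3 lines and black is the mean over lines, and filled points have an adjusted p under 0.05. CRB3, LLGL2 and AP1M2 lie to the right of 0 in every line, MAL2 without M2rtTA is at 2.85 in PK45H and at 0.28 and 0.25 in the other lines, and PARD3 and RAB25 lie around 0. MYO5B was too low to be tested in PANC1.

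CRB3 (chr19:6463777-6467221), the transmembrane protein of the Crumbs complex, had the largest rise with M2rtTA. Without M2rtTA it read 0.81, 0.20 and 0 CPM in KP4 mCherry and 1.08, 0.57 and 0.63 CPM in KP4 OVOL2, groups that overlapped. PANC1 had 0.23, 1.47 and 0.18 CPM with mCherry and 4.61, 6.57 and 2.68 CPM with OVOL2. PK45H had 0.73, 0.38 and 0.23 CPM with mCherry and 3.37, 4.67 and 1.68 CPM with OVOL2. OVOL2 libraries thus lay above mCherry libraries in PANC1 and PK45H. Over lines the change was 2.14 (SE 0.43, adjusted p = 0.000379).

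With M2rtTA, CRB3 read 5.82, 6.5 and 8.82 CPM in KP4 OVOL2 against 0, 0 and 0.58 CPM in mCherry. PANC1 read 7.68, 14.5 and 11.7 CPM against 0.22, 0 and 0 CPM, and PK45H 7.60, 4.57 and 3.70 CPM against 0.46, 0.37 and 0.44 CPM. No OVOL2 library overlapped a control, and all libraries of KP4 and PANC1 lay above the 4.98 CPM of the lowest untreated PATU8988S library. Over lines the change was 5.13 (SE 0.45, adjusted p = 2.57e-11), a fitted value that depends on how controls at or near 0 counts are handled. As ratios of summed counts scaled to library size, with exact 95% intervals that cover counting error only, OVOL2 exceeded mCherry in KP4 by 31.1-fold (10.4 to 153), in PANC1 by 171-fold (30.3 to 6797) and in PK45H by 12.7-fold (6.11 to 30.5). The upper bound in PANC1 is wide because the controls held 1 count. Without M2rtTA the ratios were 1.99 (0.72 to 6.33), 6.06 (3.28 to 12.0) and 7.39 (2.96 to 23.8). CRB3 was the only member whose OVOL2 effect was called different between the arms, by 3.00 (SE 0.71, adjusted p = 0.00655), where 7.72% of all genes were called. That call was lost without KP4 mCherry replicate 1 (2.48, adjusted p = 0.131) or without PANC1 mCherry replicate 2 (2.45, adjusted p = 0.0522). The PANC1 call without M2rtTA (2.65, adjusted p = 0.0334) was lost when any of 4 single libraries was left out. The 3′ end of CRB3 overlaps that of DENND1C on the opposite strand, and DENND1C had at most 22 counts in any group of the 3 lines, in KP4 OVOL2 + M2rtTA. From mCherry + M2rtTA to OVOL2 + M2rtTA, DENND1C went from 1 to 22 summed counts in KP4 and from 3 to 18 in PANC1. In PK45H it had 7 in both. Its part in the CRB3 counts was not tested.

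LLGL2 (chr17:75525002-75575209), the basolateral member and a homologue of the fly lethal giant larvae protein, rose in every line and arm. KP4 read 4.72, 4.67 and 2.29 CPM with mCherry and 28.1, 22.7 and 16.8 CPM with OVOL2. PANC1 read 10.9, 13.3 and 12.2 CPM with mCherry and 31.4, 30 and 34.8 CPM with OVOL2. PK45H read 3.67, 2.67 and 6.63 CPM with mCherry and 19.7, 15.7 and 15.8 CPM with OVOL2. The groups were apart in all 3 lines, also with M2rtTA. The change over lines was 1.93 (SE 0.17, adjusted p = 1.80e-10) without and 1.79 (SE 0.17, adjusted p = 1.76e-10) with M2rtTA. In KP4 the 2.50 and 2.19 were nominally above the 1.39 and 1.41 in PANC1, but the lines' effects were not called different (adjusted p = 0.284 and 0.473). The untreated PANC1 libraries, at 21.1 to 25.3 CPM, lay above the mCherry libraries of that line, a difference not tested within the line.

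AP1M2 (chr19:10572671-10587312), the epithelial μ subunit of the AP-1B adaptor, had the largest rise without M2rtTA, 2.34 (SE 0.30, adjusted p = 4.49e-07), and 2.15 with it (SE 0.30, adjusted p = 4.54e-07). KP4 read 1.79, 1.22 and 0.91 CPM with mCherry and 10.04, 16.8 and 12.0 CPM with OVOL2. PANC1 read 4.30, 4.27 and 4.57 CPM with mCherry and 19.5, 10.3 and 22 CPM with OVOL2. PK45H read 0.24, 1.52 and 0.91 CPM with mCherry and 2.16, 3.97 and 2.73 CPM with OVOL2. OVOL2 libraries were above the controls in each line, but in PK45H the change of 1.74 was not called (adjusted p = 0.0983), nor was that of 1.28 with M2rtTA (adjusted p = 0.127). With M2rtTA the level was 9.86 ± 2.08 CPM (SD, n = 3) in KP4, 21.9 ± 8.19 CPM in PANC1 and 2.87 ± 1.14 CPM in PK45H. All of these lay below the 54.9 CPM of the lowest HPAFII library. In PANC1 without M2rtTA the call was lost without mCherry replicate 2, mCherry replicate 3 or OVOL2 replicate 3, with adjusted p-values up to 0.0662.

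SH3YL1 (chr2:218136-264824) rose by 0.93 (SE 0.15, adjusted p = 2.76e-05) over lines and by 1.10 (SE 0.15, adjusted p = 6.45e-07) with M2rtTA. With M2rtTA, KP4 read 3.31, 4.29 and 5.39 CPM in mCherry and 8.48, 11.5 and 11.1 CPM in OVOL2. PANC1 read 3.56, 5.26 and 5.37 CPM in mCherry and 11.3, 15.7 and 18 CPM in OVOL2. PK45H read 5.16, 3.37 and 3.83 CPM in mCherry and 5.40, 6.86 and 3.47 CPM in OVOL2, groups that overlapped. SH3YL1 was called in KP4 and PANC1 in both arms and in PK45H in neither (0.41 and 0.40), yet the difference between lines was not called (adjusted p = 0.461 and 0.0689). The calls without M2rtTA were lost in KP4 when any of 4 libraries was left out and in PANC1 likewise. Its first exons overlap those of ACP1 on the opposite strand, away from the 3′ end that was counted.

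Among the groups of KP4, PANC1 and PK45H, MAL2 and MYO5B reached their highest levels with OVOL2 in PK45H. MAL2, a tetraspan protein of apical transport, read 7.09, 2.67 and 9.83 CPM in PK45H mCherry and 45.9, 52.9 and 54.9 CPM in PK45H OVOL2. KP4 read 5.53, 6.09 and 8.00 CPM with mCherry and 6.33, 10.8 and 6.80 CPM with OVOL2, and PANC1 4.30, 9.73 and 9.69 CPM against 13.3, 8.91 and 6.79 CPM. Only in PK45H did the groups not overlap, and PRSS1 moved in the same libraries, from 0 to between 5.29 and 7.43 CPM, a relation not tested. The changes were 2.85 (SE 0.29, adjusted p = 3.62e-05) in PK45H, 0.28 (adjusted p = 0.618) in KP4 and 0.25 (adjusted p = 0.798) in PANC1, and the difference between lines was called (adjusted p = 0.000455), where 2.74% of all genes were.

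With M2rtTA, MAL2 was above the controls in all 3 lines. KP4 read 3.98, 5.80 and 5.97 CPM with mCherry and 13.1, 12.0 and 10.3 CPM with OVOL2, a rise of 1.18 (adjusted p = 0.00522). PANC1 moved from 6.22, 8.18 and 8.68 CPM to 10.1, 12.2 and 12.0 CPM, which was not called (0.56, adjusted p = 0.391). PK45H read 12.5, 8.25 and 11.5 CPM with mCherry and 44.4, 37.1 and 34.7 CPM with OVOL2, a rise of 1.90 (adjusted p = 0.000376). In this arm the difference between lines was not called (adjusted p = 0.144).

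MYO5B (chr18:49822789-50195147), the class V myosin of recycling endosomes, rose in PK45H in both arms. It read 4.40, 4.19 and 4.8 CPM with mCherry and 23.1, 20.7 and 21.7 CPM with OVOL2, a rise of 2.21 (SE 0.17, adjusted p = 2.95e-06). With M2rtTA it read 6.84, 8.25 and 6.93 CPM and then 19.6, 20.3 and 18.5 CPM, a rise of 1.47 (SE 0.15, adjusted p = 3.72e-05). The untreated PK45H libraries, at 7.29 to 9.07 CPM, lay above the mCherry libraries without M2rtTA, a difference not tested within the line. KP4 read 1.14, 0.61 and 0.69 CPM with mCherry and 2.62, 2.65 and 3.32 CPM with OVOL2. The KP4 groups were apart, but the change missed the threshold in both arms (1.76, adjusted p = 0.0731, and 1.38, adjusted p = 0.0538). In DESeq2 both were called (adjusted p = 0.0327 and 0.0248). PANC1 stayed at 0.18 to 2.17 CPM in all its transduced libraries and was not tested there. The difference between lines was not called for MYO5B (adjusted p = 0.507 without and 0.473 with M2rtTA). Exons of another gene on the same strand overlap those of MYO5B, and its part in the MYO5B counts was not tested.

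RAB25 (chr1:156061160-156070504) was not called with OVOL2 in either arm. Over lines its change was 0.00 (SE 0.30, adjusted p = 0.999) without and 0.12 (SE 0.29, adjusted p = 0.803) with M2rtTA. OVOL2 + M2rtTA libraries read 10.3, 5.34 and 5.04 CPM in KP4, 4.32, 4.99 and 1.71 CPM in PANC1 and 1.40, 2.54 and 5.09 CPM in PK45H. The mCherry + M2rtTA libraries read 3.09, 5.30 and 4.81 CPM, 2.89, 5.06 and 1.65 CPM and 3.8, 6.93 and 2.80 CPM. All groups overlapped their controls. No group mean of the transduced lines exceeded 2.89% of the mean of untreated HPAFII and PATU8988S.

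PATJ (chr1:61742480-62163915), the multi-PDZ scaffold of the Crumbs complex, had 2 libraries of PK45H far above their companions. Without M2rtTA it read 10.7, 11.2 and 11.9 CPM in KP4 mCherry and 21.8, 17 and 54.9 CPM in OVOL2. PANC1 read 14.9, 12.0 and 13.9 CPM and then 17.3, 21.6 and 20.4 CPM, and PK45H 6.84, 1.14 and 8.00 CPM and then 12.7, 18.7 and 14.7 CPM. OVOL2 libraries lay above the controls in all 3 lines. The change over lines was nevertheless 1.15 with an SE of 0.63 (adjusted p = 0.226), in a fit that also held PK45H untreated replicate 3 with 2715 and PK45H mCherry + M2rtTA replicate 2 with 2035 PATJ counts. Fitted on only the groups compared, the change was 1.14 (adjusted p = 0.00354).

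With M2rtTA, PATJ read 12.4, 9.33 and 12.5 CPM in KP4 mCherry and 26.3, 34.0 and 29.7 CPM in OVOL2. PANC1 read 12.0, 15.4 and 9.09 CPM and then 25.7, 29.6 and 26.6 CPM, the one called rise of PATJ within a line (1.16, adjusted p = 0.00141). PK45H mCherry + M2rtTA read 5.16, 381 and 5.45 CPM and OVOL2 + M2rtTA 11.2, 12.2 and 24.3 CPM. Replicate 2 alone turned the PK45H change to -2.99 (adjusted p = 0.236) and that over lines to -0.14 (adjusted p = 0.889). Without that library the change over lines was 1.40. This control stands out by its own PATJ value, so leaving it out raises the change in advance, and no p-value is given. With all 8 libraries left out the change over lines was 1.16 without and 1.41 with M2rtTA. All but HPAFII replicate 2 were picked from values of PATJ and PARD6B, so these fits are no test of PATJ.

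PARD6B (chr20:50731580-50753741), the Par complex member that ties CDC42 to atypical protein kinase C, had the most uneven libraries. PANC1 OVOL2 + M2rtTA read 7881, 131 and 48.0 CPM, the first from 32856 counts. KP4 mCherry + M2rtTA read 968, 46.4 and 64.7 CPM, and PK45H mCherry + M2rtTA 84.9, 881 and 55.7 CPM. Across the groups PATJ and PARD6B held 8 values that were at least 5 times both companions and had at least 50 counts, and the other members had none. That was 8.89% of the 90 pairs of a member and a group with such counts, against 1.19% over all genes. PARD6B changed over lines by -0.06 (SE 0.70, adjusted p = 0.973) without and 0.03 (SE 0.70, adjusted p = 0.984) with M2rtTA. Its effect was called different between lines with M2rtTA (adjusted p = 0.0168), where 7.56% of all genes were, but not without PANC1 OVOL2 + M2rtTA replicate 1 (adjusted p = 0.539), nor without replicate 1 or 2 of PANC1 mCherry + M2rtTA (adjusted p = 0.0724 and 0.0737). Without that OVOL2 library the change over lines was -1.63, in a fit that kept the high mCherry + M2rtTA libraries of KP4 and PK45H. The library stands out by its own PARD6B value, so leaving it out lowers the change in advance. No p-value is therefore given. With all 8 left out no PARD6B change was called in either arm.

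PARD3 (chr10:34109561-34815296), the scaffold of the Par complex, had the smallest SE of the members over lines. Its change was -0.23 (SE 0.14, adjusted p = 0.277) without and -0.12 (SE 0.14, adjusted p = 0.550) with M2rtTA. With M2rtTA it read 67.6, 58.8 and 45.8 CPM in KP4 mCherry and 46.0, 72 and 43.8 CPM in OVOL2. PANC1 read 42.2, 50.4 and 31.6 CPM and then 33.1, 38.1 and 37.3 CPM, and PK45H 86.0, 103 and 86.4 CPM and then 88.8, 110 and 53.7 CPM. The groups overlapped in every line and arm.

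The controls were compared with each other. mCherry cells differed from untreated cells by the virus, polybrene, puromycin and doxycycline together. In edgeR, 0 members were called between mCherry and untreated cells, where 0.489% of all genes were called. Of the members, 2 had an unadjusted p under 0.05 (CRB3 0.0203, PATJ 0.00878), where 9.52% of all genes did. Between mCherry + M2rtTA and mCherry, 0 were called, where 0.0602% of all genes were. Here 2 had an unadjusted p under 0.05 (PATJ 0.0288, MYO5B 0.00450), where 8.20% of all genes did. For PATJ the first comparison held PK45H untreated replicate 3 at 397 CPM. The second held PK45H mCherry + M2rtTA replicate 2 at 381 CPM. DESeq2 called 0 in both comparisons.

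Levels after OVOL2 were set beside those of the untreated lines HPAFII and PATU8988S, in percent of the mean of these lines. With M2rtTA and in the order KP4, PANC1 and PK45H, CRB3 reached 107%, 172% and 80.4%. LLGL2 reached 61.3%, 110% and 48.8%. SH3YL1 reached 51%, 74.0% and 25.8%. AP1M2 reached 11.6%, 25.7% and 3.36%, and MAL2 10.1%, 9.76% and 33.1%. MYO5B reached 14.6%, 4.89% and 54.0%. RAB25 was at 2.89%, 1.54% and 1.26%. In the mCherry + M2rtTA controls, in the same order, CRB3 was at 2.93%, 1.13% and 6.45%, LLGL2 at 13.4%, 41.1% and 14.8%, and SH3YL1 at 21.3%, 23.3% and 20.3%. AP1M2 was at 1.13%, 7.05% and 1.43% there, MAL2 at 4.49%, 6.58% and 9.17%, MYO5B at 5.54%, 3.62% and 20.3%, and RAB25 at 1.85%, 1.34% and 1.89%. CRB3 was above the reference in KP4 and PANC1 after OVOL2 with M2rtTA, and LLGL2 in PANC1. After OVOL2 without M2rtTA, CRB3 was at 11.6% in KP4 and 70.2% in PANC1, and LLGL2 at 89.0% in PANC1. These percentages compare virus-treated with untreated cells and were not tested.

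**Figure D4:**
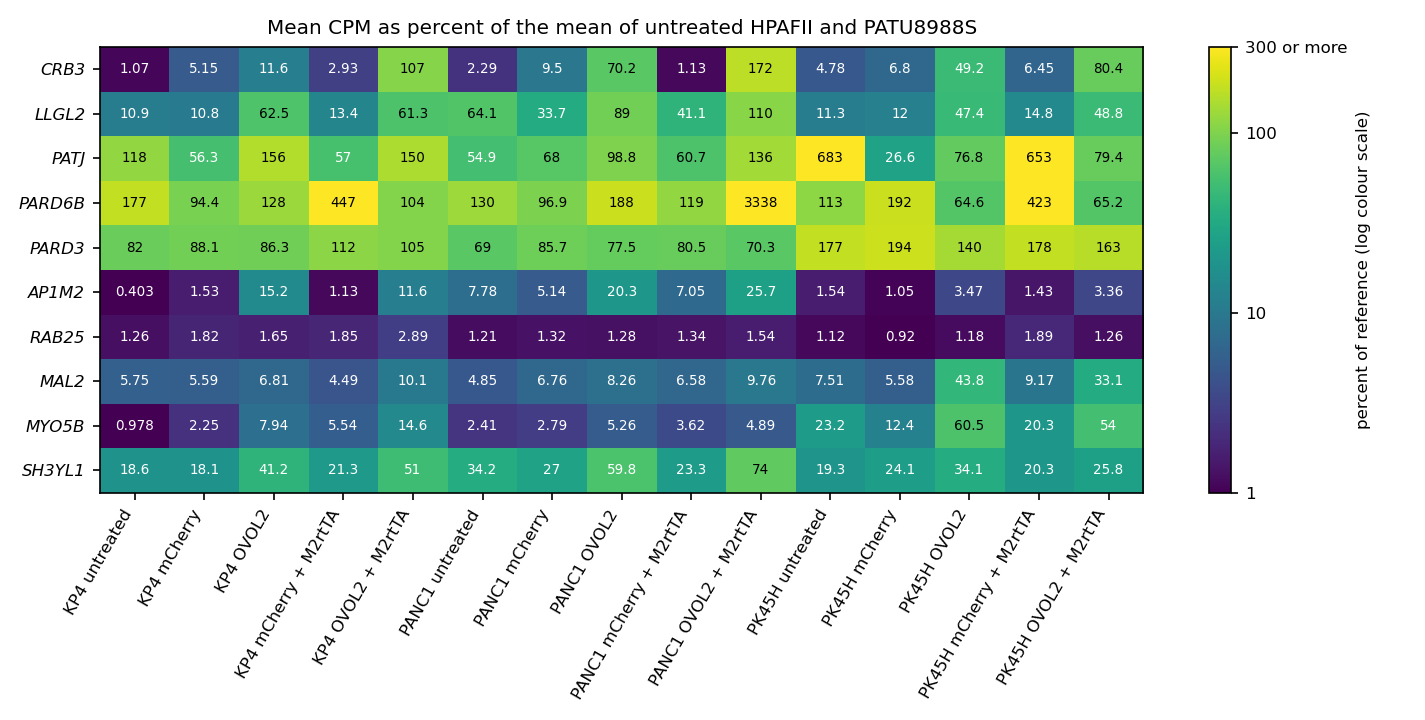
Mean CPM of each gene in the 15 groups of KP4, PANC1 and PK45H, as percent of the mean of untreated HPAFII and PATU8988S, on a log colour scale. CRB3 moves from 1.13% to 172% in PANC1 with M2rtTA, and RAB25 stays between 0.92% and 2.89%; the highest cells of PATJ and PARD6B come from single libraries.

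**Figure D5:**
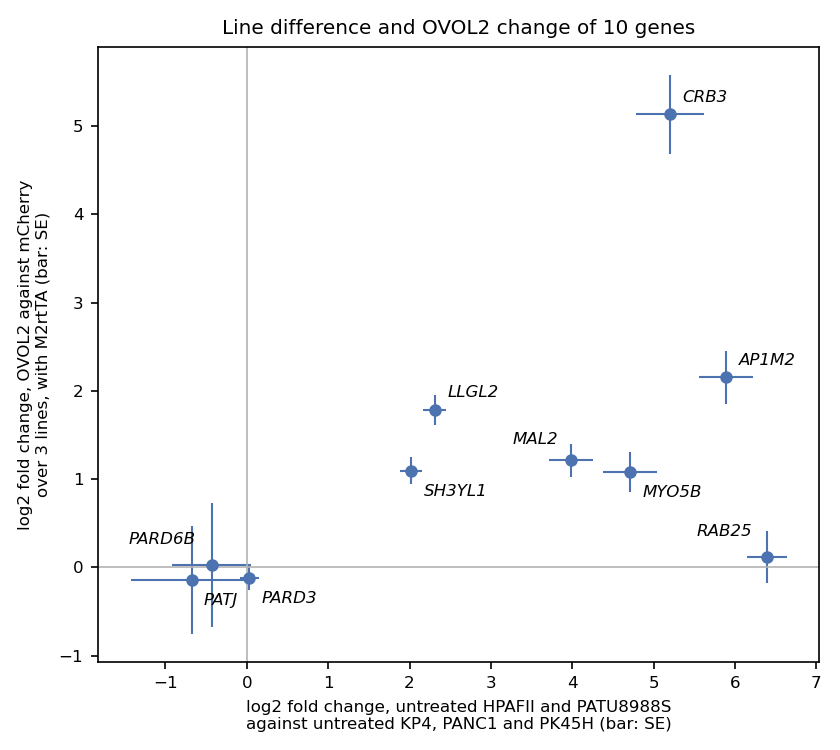
Log2 fold change of the untreated HPAFII and PATU8988S lines against the other 3 lines (x axis) and of OVOL2 against mCherry over 3 lines with M2rtTA (y axis) for 10 genes, with bars of 1 SE. CRB3 is high on both axes (5.20 and 5.13), RAB25 has 6.39 on the x axis and 0.12 on the y axis, and PARD3, PARD6B and PATJ lie near or below 0 on both. The positions of PATJ and PARD6B rest on single libraries: without the 8 that stand apart PATJ is at 1.15 and 1.41.

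Close relatives of the members were read in the same comparisons. Of 13 relatives, CRB2 (a Crumbs protein) and MAL (the founder of the MAL family) were not tested over lines. AP1M1, the ubiquitous μ subunit that AP1M2 replaces in AP-1B, fell by 0.65 (SE 0.17, adjusted p = 0.00548) without M2rtTA and differed by -0.04 (adjusted p = 0.888) with it. RAB11A, the general recycling GTPase, rose by 0.34 (adjusted p = 0.00249) and 0.33 (adjusted p = 0.00185), and RAB11B by 0.24 (adjusted p = 0.00696) and 0.29 (adjusted p = 0.000553). PARD6A, a second Par complex adaptor, was at -0.06 (adjusted p = 0.875) without M2rtTA and rose by 1.18 (SE 0.19, adjusted p = 4.82e-06) with it. CRB1, LLGL1, MPDZ, PARD6G, PARD3B, MYO5A and MYO5C were not called in either arm. In the untreated lines MYO5C was 1.79 higher (adjusted p = 5.30e-06) and MYO5A 1.14 lower (log2 difference -1.14, adjusted p = 5.82e-05) in HPAFII and PATU8988S.

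A list of 53 other polarity and trafficking genes was described by its counts. Over lines without M2rtTA, 50 were tested, 10 rose and 8 fell, with a median of 0.00, beside 9.32% and 8.81% of all genes. With M2rtTA 15 rose and 7 fell, with a median of 0.07, beside 15.7% and 17.3% of all genes. Untreated, 49 were tested, 18 were higher and 4 lower in HPAFII and PATU8988S, with a median of 0.34, beside 17.4% of all genes in each direction. The smallest p-values among the rises belonged to vesicle fusion genes: VAMP8, a SNARE of regulated secretion, rose by 0.85 (SE 0.11, adjusted p = 3.24e-07) and 1.08 (SE 0.11, adjusted p = 8.09e-10), and STX3, the apical syntaxin, by 0.75 (adjusted p = 2.11e-06) and 0.89 (adjusted p = 2.69e-08). STXBP2, a partner of STX3, and AP1S1, a small subunit of AP-1, rose by 0.85 and 0.73 without and by 0.84 and 0.48 with M2rtTA. RAB17, an epithelial recycling GTPase, rose by 2.27 (SE 0.56, adjusted p = 0.00334) without and by 3.05 (SE 0.44, adjusted p = 1.04e-06) with M2rtTA. Without M2rtTA its mean was lower with OVOL2 in KP4, at 0.44 CPM against 0.87 CPM in mCherry. It went from 0.50 to 6.49 CPM in PANC1 and from 0.16 to 3.78 CPM in PK45H. These mCherry groups held only 14, 9 and 2 RAB17 counts in KP4, PANC1 and PK45H. The polarity kinase STK11 was at 0.15 (adjusted p = 0.300) without M2rtTA and rose by 0.64 (adjusted p = 1.08e-06) with it. MALL, a relative of MAL2, fell by 0.56 (adjusted p = 0.000175) and 0.72 (adjusted p = 1.65e-06), and SYTL2 by 0.67 and 0.76. AP1S2 fell by 0.62 without M2rtTA and was at -0.29 (adjusted p = 0.0958) with it, and EPB41L5 fell by 0.52 and 0.40. SCRIB, the basolateral scaffold, fell by 0.46 (adjusted p = 0.0302) and 0.85 (adjusted p = 5.59e-05). MPP5, the link between CRB3 and PATJ, was at -0.01 (adjusted p = 0.986) without M2rtTA and fell by 0.59 (adjusted p = 0.00368) with it.

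Patterns over the 17 group means were compared by Pearson correlation of log2 CPM, as a description in which groups share lines and libraries. Among members, AP1M2 and SH3YL1 (0.92), LLGL2 and AP1M2 (0.90), LLGL2 and SH3YL1 (0.87) and MAL2 and MYO5B (0.85) were the most alike. Over the 15 groups of KP4, PANC1 and PK45H alone, RAB25 and MAL2 went from 0.76 to -0.03, while AP1M2 and SH3YL1 stayed at 0.89. Of 10265 genes with at least 5 CPM on average, the most like each member was SPINT1 for CRB3 (0.94), ARHGEF35 for LLGL2 (0.94), CLDN7 for AP1M2 (0.93), LAD1 for RAB25 (0.98), TTC22 for MAL2 (0.94), CORO2A for MYO5B (0.95), ESRP1 for SH3YL1 (0.91) and NUDT3 for PARD3 (0.95). PATJ and PARD6B had none above 0.75 (MYT1L at 0.74 and SGTA at 0.75).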

How the data were processed

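Gene counts of 51 libraries were taken as the authors deposited them: whole-number counts per gene symbol, without normalisation. Per the submitters' processing notes, kallisto 0.44.0 and GRCh38 were used, with no role given; kallisto gives estimated counts, and how they became whole numbers, and the handling of strand and molecular identifiers, are not given in the sources used here. All columns were matched to samples by their labels, and no 2 libraries of a group were near-identical. In R 4.3.3, edgeR 4.0.16 fitted the 15 libraries of each transduced line, the 45 libraries of the 3 lines, and the 15 untreated libraries separately (filterByExpr, TMM, glmQLFit and glmQLFTest, two-sided, Benjamini-Hochberg adjusted over all genes). CPM used TMM factors of all 51 libraries. Log2 group means for correlations had a prior count of 2. Replicate numbers did not pair libraries. On simulated counts of the comparison over lines with M2rtTA (14439 genes), 74% of 2-fold and 93% of 4-fold changes were recovered, and 6.70% of calls were false. In KP4 with M2rtTA (13451 genes) these were 23%, 75% and 4.85%. The simulations gave each gene the same mean in all groups, apart from 100 genes changed at each size. They held no other differences between groups or lines and no controls near 0 beside high groups. The rates may therefore not hold for the real tests. Alternatives were RLE scaling, other filters, DESeq2 1.42.0, other sets of samples, robust dispersion, a replicate block and leaving out libraries. Named genes were all members, OVOL2, ZEB1, the members' close relatives, and up to 4 list genes per direction with the smallest p in each comparison over lines. Members and lists were chosen with earlier results of these data known. Promoter sequences are from RefSeq.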

Additional observations from a re-analysis of the deposited data

Results flagged for a closer look

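3 results differed between lines or arms by a test of the difference itself in edgeR. The MAL2 response to OVOL2 without M2rtTA differed between KP4, PANC1 and PK45H (adjusted p = 0.000455), with changes of 0.28, 0.25 and 2.85. It was called in 18 of 18 fits that each left out 1 library.

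The PARD6B response with M2rtTA differed between the lines (adjusted p = 0.0168), with KP4 at -2.09, PANC1 at 4.86 and PK45H at -2.65. Without PANC1 OVOL2 + M2rtTA replicate 1, the library with 32856 PARD6B counts, the adjusted p was 0.539. The call was also lost without PANC1 mCherry + M2rtTA replicate 1 (adjusted p = 0.0724) or replicate 2 (adjusted p = 0.0737).

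The CRB3 response differed between the arms by 3.00 on the log2 scale (adjusted p = 0.00655), and OVOL2 libraries lay above the controls in 2 of 3 lines without and in 3 of 3 with M2rtTA. The call was lost without KP4 mCherry replicate 1 (adjusted p = 0.131) or PANC1 mCherry replicate 2 (adjusted p = 0.0522). The counts in the OVOL2 row changed against mCherry by -0.09 without and 2.15 with M2rtTA. Whether that row counts the viral transcript is not known, and its part in the CRB3 result was not tested.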

How the results depend on the processing

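Counts of members called stayed within 1.5 times the main count under every alternative but the following. Fitted on only the groups compared, OVOL2 in PANC1 without M2rtTA had 2 members called (LLGL2 and AP1M2) against 4. With the 8 libraries that stand apart left out, chosen after seeing the data, 0 members differed between lines with M2rtTA against 1. Leaving out each library in turn gave, without and with M2rtTA, 2 to 3 and 5 to 6 members in KP4, 2 to 3 and 5 to 6 in PANC1, 4 and 4 in PK45H, 6 and 6 to 7 over lines, and 1 and 0 to 2 between lines. It gave 0 to 1 for the M2rtTA change, 7 between the untreated sets of lines, 1 to 3 for PATU8988S against HPAFII and 5 to 6 between KP4, PANC1 and PK45H. The replicate block changed no count of members called. Over lines it turned RAB25 without M2rtTA to -0.00050 and PARD6B with M2rtTA to -0.21, both uncalled. 1 of 18 same-number pairs of OVOL2 and mCherry libraries had a correlation of deviations above 0.1.

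Signs that turned belonged to differences not called in the main analysis. RAB25 over lines without M2rtTA turned to -0.0078 with a mean count of at least 10 and -0.020 in 1 fit of all libraries. Without a filter PARD3 between the untreated sets turned to -0.0041. With the 8 libraries left out, OVOL2 with M2rtTA gave 0.62 (PARD6B) and 0.073 (PARD3) in KP4, -0.11 (PARD6B) in PANC1, 1.64 (PATJ) and 0.027 (PARD3) in PK45H and 1.41 (PATJ) over lines. Without M2rtTA it gave -0.72 (PARD6B), 0.060 (PARD3) and -0.028 (MAL2) in PANC1 and -0.0022 (RAB25) over lines. PATJ became 0.093 in mCherry against untreated and -0.092 in mCherry + M2rtTA against mCherry. Between the untreated sets PATJ became 1.15, PARD6B 0.56 and PARD3 -0.068. All but HPAFII replicate 2 of the libraries left out were picked from values of PATJ and PARD6B, so no p-value is given. The cause of the turned signs was not tested.

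Leaving out single libraries turned the sign of these uncalled differences, given as ranges. KP4 without M2rtTA gave -0.095 to 0.012 for PARD3, -0.71 to 0.19 for RAB25 and -0.0067 to 0.46 for MAL2. KP4 with M2rtTA gave -2.62 to 0.62 for PARD6B and -0.34 to 0.074 for PARD3. The mean over lines without M2rtTA gave -0.64 to 0.32 for PARD6B and -0.18 to 0.21 for RAB25. The mean over lines with M2rtTA gave -0.33 to 1.40 for PATJ, -1.63 to 0.91 for PARD6B and -0.089 to 0.28 for RAB25. mCherry + M2rtTA against mCherry over lines gave -0.073 to 1.66 for PATJ. PANC1 without M2rtTA gave -0.74 to 1.43 for PARD6B, -0.31 to 0.044 for PARD3, -0.32 to 0.13 for RAB25 and -0.043 to 0.48 for MAL2. PANC1 with M2rtTA gave -0.12 to 5.81 for PARD6B and -0.089 to 0.71 for RAB25. PK45H without M2rtTA gave -0.17 to 0.85 for RAB25. PK45H with M2rtTA gave -3.58 to 1.64 for PATJ and -0.33 to 0.17 for PARD3. The difference of the untreated sets gave -0.87 to 0.78 for PATJ, -0.58 to 0.022 for PARD6B and -0.029 to 0.092 for PARD3.

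Depth limits CRB3, whose control groups held 1 to 13 counts, and MYO5B, with 13 counts in KP4 mCherry and 16 in PANC1 mCherry. It also limits AP1M2, with 21 counts in KP4 mCherry, 13 in KP4 mCherry + M2rtTA and 9 in PK45H mCherry. A group whose libraries all have 0 counts would still allow 3 counts.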
